A study of Mus musculus with 20 samples.

Results

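The genes described here encode the matrix of hyaline cartilage other than its collagens, with the transcription factor that drives chondrocyte genes: Acan, Hapln1, Matn1, Matn3, Comp, Chad, Cilp, Prg4, Cytl1 and Sox9. They were chosen by name, as every non-control probe of the array that carries 1 of these 10 gene names or, for Acan, its older name Agc1. That rule found 8 of the 10 genes. Cytl1 was on the array under the older name Cyt1 and the Prg4 probe carried only an Ensembl transcript identifier and a description, and both were added on that basis. The 10 genes had 13 of the 41174 probes (Hapln1 2, Sox9 3, every other gene 1), out of 27670 named genes and transcripts on the array.

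Gene expression was measured in 20 whole tracheas from mice, with 1 one-colour Agilent array per trachea, in 4 groups of 5. Wild-type mice were labelled C57/Bl6 and the others Myd88 KO, a line that lacks the adaptor of most Toll-like receptors and of the interleukin-1 receptor throughout the body. In each genotype 5 tracheas were uninjured, and 5 came from mice given 2% polidocanol, a detergent that strips the airway lining, 3 days earlier. The study asked how the loss of Myd88 alters the trachea at rest and its repair. All mice were labelled 4 months old and no sex was given (the study's methods name males and females over a wider age range). The Myd88KO line was bred from knockout parents and the wild-type mice came from a separate colony, so genotype and colony cannot be told apart. Each sample was the whole trachea after trimming of loose connective tissue, so epithelium, cartilage, muscle, glands and any attached tissue were measured together. In such bulk samples, fewer chondrocytes and less RNA per chondrocyte cannot be told apart.

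The trachea is held open by C-shaped rings of hyaline cartilage. Their chondrocytes embed themselves in fibrils of collagen type II, between which lies aggrecan, a core protein that carries chondroitin sulphate chains and holds water. Aggrecan binds hyaluronan, and link protein (Hapln1) locks that bond. Matrilins, cartilage oligomeric matrix protein (Comp) and chondroadherin (Chad) connect the fibrils with each other and with the cells. SOX9 is the transcription factor without which chondrocytes do not form.

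All values are log2 intensities of a probe relative to the 75th percentile of its own array, so 0 is the level that the brightest probes of the array exceed and a difference of 1 is a 2-fold change. A probe was tested if it lay well above background on at least 10 of 20 arrays, which left 26064 probes, and all 13 probes of the 10 genes were among them. Of these, 12 lay well above background on all 20 arrays and the third Sox9 probe did on 18, so RNA of these genes was measured in every trachea. Groups were compared with limma on all 20 arrays, and a probe with a Benjamini-Hochberg adjusted p under 0.01 was called differentially expressed. Over the arrays, 57.5% to 67.8% of spots lay well above background, and arrays of 1 group correlated at 0.925 to 0.990.

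Injured Myd88KO tracheas were uneven. Over the 1370 probes outside the 10 genes that were called for injury in wild-type tracheas, the median shift in the direction of injury, called the injury profile below, was 1.37 to 1.73 in injured wild-type arrays, where it is high by construction. In injured Myd88KO arrays 1 to 5 it was 0.50, 1.44, 0.54, 1.37 and -0.09. Replicate 5 lay next to the uninjured Myd88KO arrays, which ranged from -0.08 to 0.11, and the main values for injury in Myd88KO tracheas are given below with and without it. Among uninjured arrays, wild-type replicate 3 and Myd88KO replicate 4 each held the lowest value of their group in 7 of the 10 genes, and so did injured Myd88KO replicate 4.

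Promoter sequences are shown for the pair of members that encode the aggrecan and link protein complex, which moved together over the arrays, and for Chad, which followed them less closely (r over 20 arrays 0.79 between Acan and Hapln1, and 0.24 and 0.33 with Chad). They run from 250 bases before to 50 bases after the annotated start, on the + strand of GRCm38.p6, and come from RefSeq. Of the 10 genes, 7 had a sequence. Capitals mark the GC box GGGCGG, the TATA box TATAAA and the core of SOX sites, ACAAT, on either strand.
Acan, chr7:79052976-79053275: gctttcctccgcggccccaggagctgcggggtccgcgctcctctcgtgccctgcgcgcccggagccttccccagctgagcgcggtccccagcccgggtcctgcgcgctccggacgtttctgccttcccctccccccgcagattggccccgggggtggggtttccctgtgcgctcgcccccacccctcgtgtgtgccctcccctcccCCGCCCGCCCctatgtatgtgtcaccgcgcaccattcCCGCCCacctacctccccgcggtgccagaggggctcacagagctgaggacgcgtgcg
Hapln1, chr13:89540386-89540685: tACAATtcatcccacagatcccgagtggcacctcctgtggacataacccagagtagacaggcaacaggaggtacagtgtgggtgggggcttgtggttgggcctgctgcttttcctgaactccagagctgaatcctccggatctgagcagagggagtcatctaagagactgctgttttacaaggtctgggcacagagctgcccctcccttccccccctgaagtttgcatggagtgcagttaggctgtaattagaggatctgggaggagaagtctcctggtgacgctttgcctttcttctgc
Chad, chr11:94564797-94565096: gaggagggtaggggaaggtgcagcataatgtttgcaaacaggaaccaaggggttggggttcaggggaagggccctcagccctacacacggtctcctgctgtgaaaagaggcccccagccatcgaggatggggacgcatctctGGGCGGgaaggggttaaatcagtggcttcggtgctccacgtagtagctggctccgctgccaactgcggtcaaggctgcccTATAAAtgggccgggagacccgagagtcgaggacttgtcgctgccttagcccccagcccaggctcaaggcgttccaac
The GC box was present in 5 of the 7 promoters (Acan, Chad, Cytl1, Matn1 and Matn3) against 35.7% of the 32851 mouse promoters of this length, with 3 matches in Acan, of which the first and second overlap. TATAAA was found only in Chad among the 7, 28 bases before the start, against 13.6% of all promoters. ACAAT was found only in Hapln1 among the 7, 249 bases before the start, against 31% of all promoters. Acan and Hapln1, whose levels moved together, shared none of these motifs in this window. The Acan window was 74% G and C and the Hapln1 window 54.3%.

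Injury in wild-type tracheas was followed by a rise in Prg4 and left the other 9 genes below the threshold. Of the 13 probes 1 was called, Prg4, against 5.26% of all probes tested (1371 of 26064), and 8 of the 10 genes had a lower mean in injured tracheas. The median difference over the 10 genes was -0.31, against 7.88e-05 over all probes tested. By an unadjusted p under 0.05, 1 gene was higher and 3 were lower (Chad, Cytl1 and Matn3), against 26.4% of all probes tested in either direction. The groups of 5 arrays did not overlap for 2 genes, Prg4 and Chad, against 12.6% of all probes tested. The 8 genes that the naming rule itself found held none of the called probes.

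**Figure D1:**
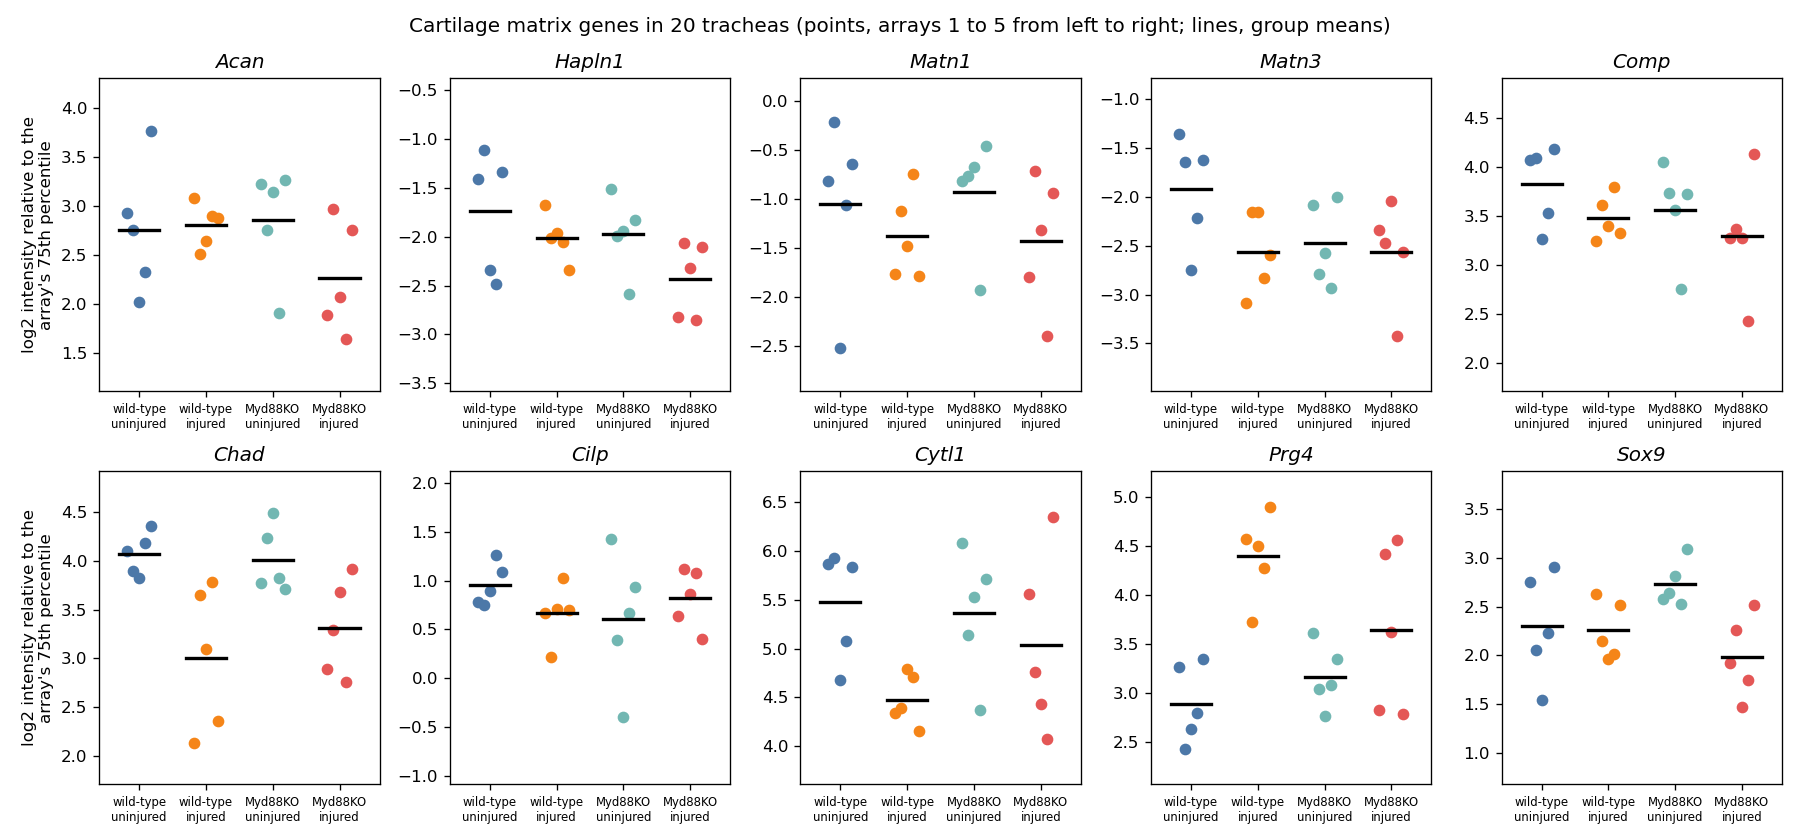
Log2 intensity relative to the array's 75th percentile (y axis) of the brightest probe of each of the 10 genes in the 4 groups (x axis), with 1 point per array and a line at the group mean. Prg4 was at 3.73 or more in all 5 injured wild-type arrays and at most 3.34 in the uninjured ones, and of the other genes only Chad in wild-type and Sox9 in Myd88KO tracheas had uninjured and injured arrays that did not overlap.

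Prg4 encodes lubricin, the mucin-like proteoglycan that coats joint surfaces and tendons. Its probe (chr1:150375688-150376428 in the files, which state no genome build) read 3.26, 2.42, 2.62, 2.80 and 3.34 in uninjured and 4.57, 3.73, 4.50, 4.27 and 4.90 in injured wild-type arrays 1 to 5. Every injured wild-type array lay above every uninjured one. The difference was 1.50 (95% confidence interval 0.83 to 2.18, a 2.84-fold rise, adjusted p = 0.00506 by limma), and Prg4 was higher on all 5 slides, by 1.30 to 1.87. In Myd88KO tracheas Prg4 read 3.61, 3.03, 2.76, 3.08 and 3.34 without injury and 2.83, 4.42, 3.62, 4.56 and 2.79 with it. Injured replicates 2 and 4 lay at the wild-type injured level, replicate 3 just above the uninjured range, and replicates 1 and 5 within it. The difference in Myd88KO tracheas was 0.48 (-0.20 to 1.15, adjusted p = 0.443 by limma), or 0.69 without injured replicate 5 (adjusted p = 0.165), and did not pass the threshold. The response in Myd88KO minus that in wild-type tracheas, -1.03, had an interval of -1.98 to -0.07 and an adjusted p of 0.468 (-0.81 and 0.523 without injured Myd88KO replicate 5), so a smaller response in Myd88KO tracheas was not shown. The call in wild-type tracheas was near the threshold, and its adjusted p was 0.0107 with the slide as a block. It lay between 0.0120 and 0.0181 without uninjured replicate 2, 3 or 4 or injured replicate 1, 3 or 5, and was under 0.01 without each of the other 4 arrays.

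In injured Myd88KO tracheas, Prg4 followed the injury profile of the array. The arrays with profiles of 1.37 and 1.44 read 4.56 and 4.42, those with 0.54 and 0.50 read 3.62 and 2.83, and replicate 5 (-0.09) read 2.79. The mean log2 level of 7 myeloid genes (Ptprc, Itgam, Lyz2, Cd68, Adgre1, S100a8 and S100a9, all of those on the array) was likewise highest in replicates 2 and 4 (2.80 and 3.19) and lowest in replicate 5 (-0.43). It ranged from 0.71 to 1.83 in uninjured and 2.38 to 4.44 in injured wild-type arrays, and from -0.54 to 0.87 and -0.43 to 3.19 in the Myd88KO groups. Their summed level overlapped between uninjured and injured wild-type arrays, at 8.23 to 9.06 and 8.42 to 9.34 on the log2 scale. Over the 20 arrays, Prg4 correlated with the mean myeloid level at r = 0.87, with r = 0.84 after the group means were removed and 0.20 over the 10 uninjured arrays. Its r with the mean of 12 matrix protease and inhibitor genes, taken up below, was higher, at 0.94, 0.91 and 0.86 in the same order. With the mean of 9 airway epithelial genes Prg4 correlated at -0.85 over 20 arrays, at -0.70 after the group means were removed and at 0.16 over the 10 uninjured arrays. On injured Myd88KO replicate 5 that mean lacks Scgb1a1, whose spot was marked as an outlier. In wild-type tracheas 2 of the 7 myeloid genes were called higher after injury (Cd68 by 3.27 and Adgre1 by 2.03), against 5.26% of all probes tested called in either direction. By an unadjusted p under 0.05 in the limma fit, 6 of the 7 were higher, and the median of the 7 was 2.57. Of the 9 epithelial genes 3 were called lower: Scgb1a1 fell by 7.91, Scgb3a2 fell by 5.77 and Bpifa1 fell by 2.24. The part of these cells in the Prg4 result was not tested.

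**Figure D2:**
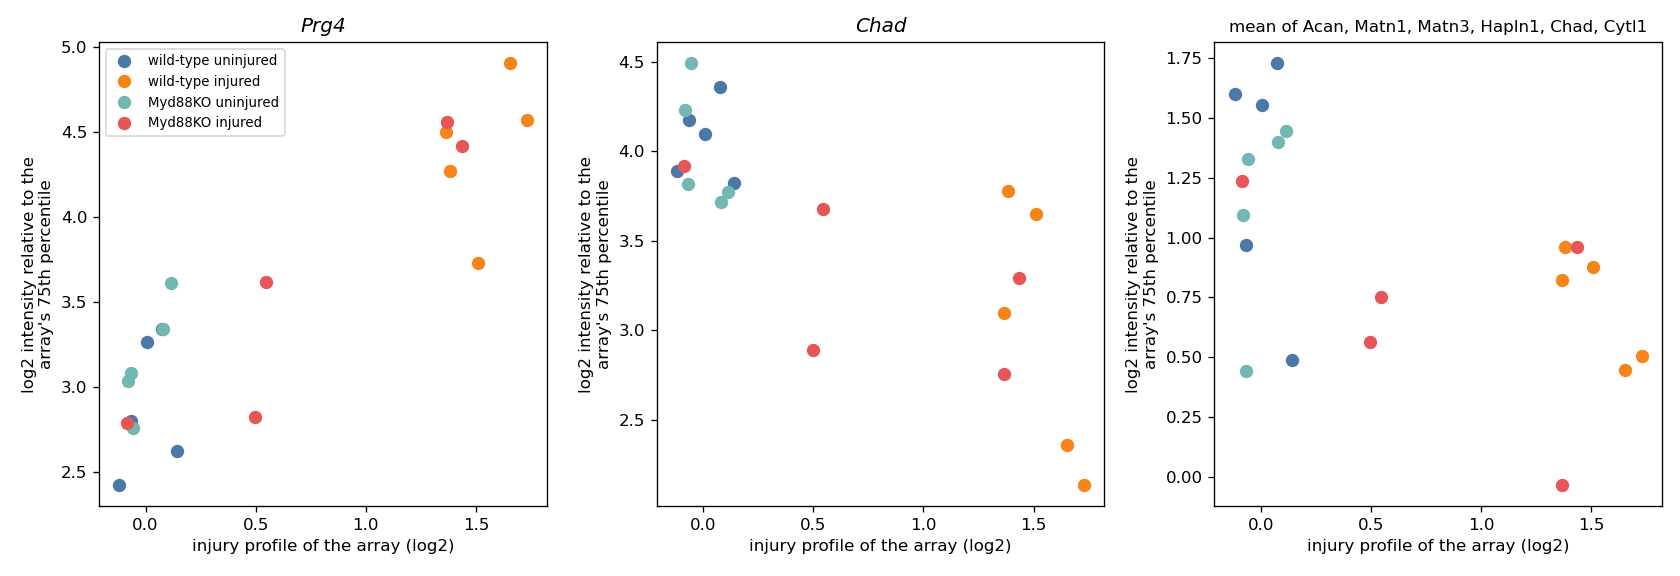
Log2 intensity of Prg4, of Chad and of the mean of 6 genes (y axes, relative to the array's 75th percentile) against the injury profile of each array (x axes, log2), with 1 point per array coloured by group. The 6 genes are Acan, Matn1, Matn3, Hapln1, Chad and Cytl1. The injured Myd88KO array at -0.09 lay among the uninjured arrays in all 3 panels, and those at 1.37 and 1.44 lay at the injured wild-type level of Prg4.

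Chad encodes chondroadherin, a leucine-rich protein through which chondrocytes attach to the matrix. It read 4.09, 3.89, 3.82, 4.18 and 4.36 in uninjured wild-type arrays and 2.13, 3.65, 3.10, 3.78 and 2.36 in injured ones. The groups did not overlap, although injured replicate 4 (3.78) and uninjured replicate 3 (3.82) nearly met. The difference, -1.06 (-1.68 to -0.45, 2.09-fold lower), had an adjusted p of 0.0223 by limma. On each of the 5 slides the injured array was the lower one, with a difference of -0.24 where it was smallest. It passed the threshold in limma without injured replicate 4 (-1.26, adjusted p = 0.00975) and with array weights (-1.25, adjusted p = 0.00241). In Myd88KO tracheas Chad read 3.77, 4.23, 4.49, 3.82 and 3.71 without injury and 2.89, 3.29, 3.67, 2.75 and 3.92 with it. There the difference was -0.70 (adjusted p = 0.200), or -0.85 without injured replicate 5 (adjusted p = 0.0726). The difference between the responses was 0.37, within an interval of -0.51 to 1.24. Over the 20 arrays Chad correlated with the same mean of epithelial genes at 0.81 and with the mean of the myeloid genes at -0.79. After the group means were removed these were 0.56 and -0.68, and over the 10 uninjured arrays 0.03 and -0.20.

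Cytl1, a small secreted protein made by chondrocytes, read 5.87, 5.93, 4.68, 5.07 and 5.84 in uninjured and 4.34, 4.39, 4.79, 4.71 and 4.16 in injured wild-type arrays. Only uninjured replicate 3 lay within the injured range. The difference was -1.0 (-1.80 to -0.20, adjusted p = 0.0934 by limma). In Myd88KO tracheas it was -0.33 (adjusted p = 0.684), or -0.66 without injured replicate 5 (adjusted p = 0.229), which at 6.35 was the highest of all 20 arrays. Cytl1 correlated over the 20 arrays with the mean of the epithelial genes at 0.66, of the myeloid genes at -0.61 and of 15 other chondrocyte genes at 0.52. These were 0.50, -0.40 and 0.67 after the group means were removed, and 0.08, 0.39 and 0.94 over the 10 uninjured arrays. Matn3, a matrilin that links proteoglycans and collagen fibrils, ranged from -2.75 to -1.36 in uninjured and -3.09 to -2.16 in injured wild-type arrays. Its difference was -0.65 (adjusted p = 0.157), and -0.09 in Myd88KO tracheas (adjusted p = 0.896).

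The aggrecan complex gave no call. Acan read 2.93, 2.75, 2.02, 2.33 and 3.77 in uninjured and 3.08, 2.51, 2.65, 2.90 and 2.88 in injured wild-type arrays, and the injured values lay within the range of the uninjured ones. The difference was 0.04 (-0.63 to 0.71, adjusted p = 0.949 by limma). In Myd88KO tracheas Acan read 3.23, 2.76, 3.15, 1.91 and 3.27 without injury and 1.88, 2.97, 2.08, 1.64 and 2.76 with it, a difference of -0.60 (-1.27 to 0.07, adjusted p = 0.319 by limma) or -0.72 without injured replicate 5 (adjusted p = 0.174). Hapln1 differed by -0.27 after injury in wild-type and -0.46 in Myd88KO tracheas on its brighter probe (-0.54 without injured replicate 5). The second Hapln1 probe gave -0.70 (adjusted p = 0.114) and -0.44, so both probes pointed down in both genotypes and neither was called. Matn1, a matrilin of cartilage, differed by -0.33 and -0.50 (-0.63 without injured Myd88KO replicate 5), and Comp, a pentameric protein that catalyses collagen fibril assembly, by -0.36 and -0.27 (-0.48 without that array). Cilp, found in the matrix between the cells of mature cartilage, differed by -0.29 and 0.21 (0.32 without it).

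Injury in Myd88KO tracheas gave no call among the 13 probes, against 0.376% of all probes tested (98 of 26064). Without injured replicate 5, 1075 of all probes and still 0 of the 13 were called. As in wild-type tracheas, 8 of the 10 genes had a lower mean after injury. The median difference was -0.39, against -0.07 over all probes tested. Unadjusted p under 0.05 was reached by 2 genes, Chad and Sox9, both lower, and by 19.5% of all probes tested. Sox9 read 2.58, 2.63, 2.81, 2.53 and 3.09 on its brightest probe in uninjured Myd88KO arrays and 1.93, 2.26, 1.48, 1.75 and 2.51 in injured ones. These groups did not overlap, as for 1 of the 10 genes and 3.45% of all probes tested, and Sox9 was lower in the injured array on all 5 slides. The difference was -0.74 (-1.24 to -0.24, adjusted p = 0.0952 by limma), -0.87 without injured replicate 5 (adjusted p = 0.0267) and -0.74 with the slide as a block (adjusted p = 0.0242). The second Sox9 probe, spotted 10 times on the array, gave -0.52 (adjusted p = 0.0953). The third, the dimmest, gave -0.50 (adjusted p = 0.622). In wild-type tracheas the same 3 probes gave -0.04, -0.11 and -0.66, with none called, and the difference between the responses on the brightest probe was -0.70 (-1.41 to 0.02, adjusted p = 0.488). The -0.66 includes uninjured wild-type replicate 3, where the third probe read -0.74, against -4.78 to -3.66 in the others of that group. On that probe the injured wild-type arrays ranged from -4.13 to -3.79.

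**Figure D3:**
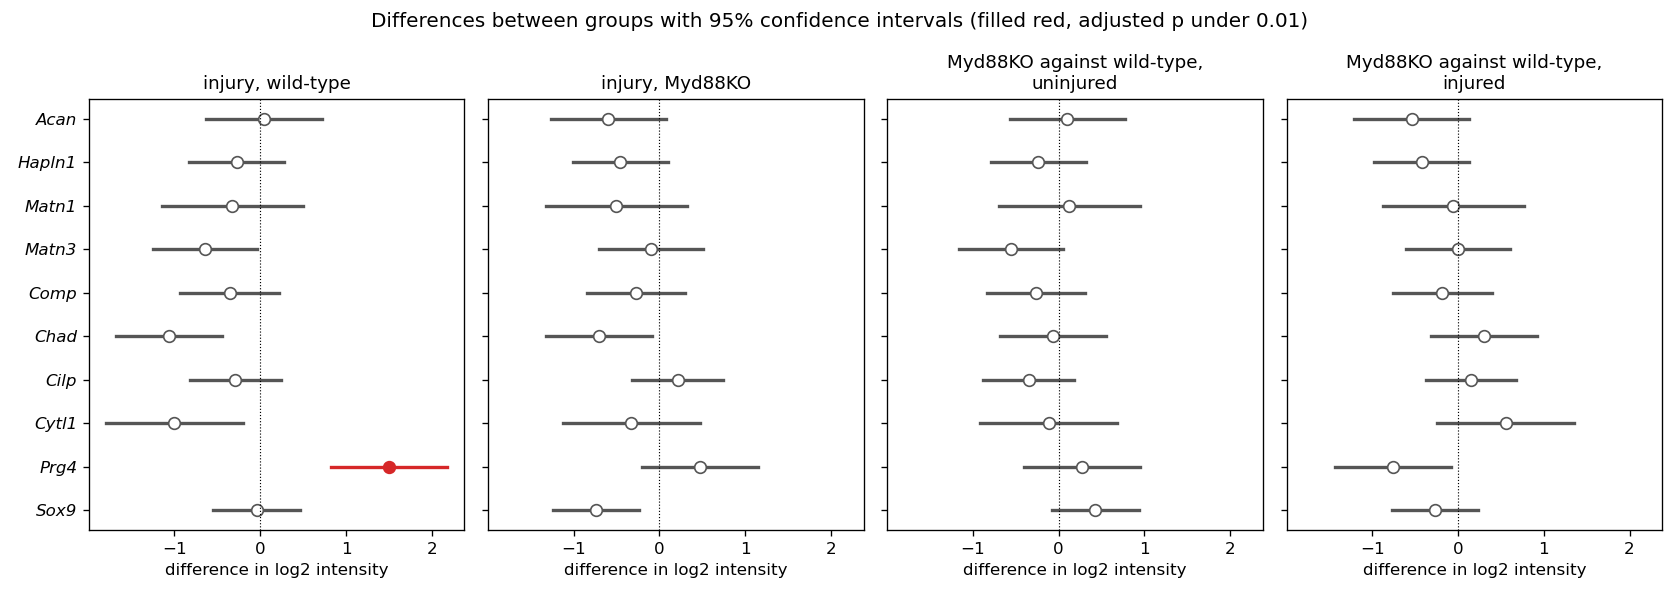
Difference in log2 intensity (x axis) of the brightest probe of each gene (y axis) in the 4 pairwise comparisons, with 95% confidence intervals from limma, where the filled point has an adjusted p under 0.01. Prg4 after injury in wild-type tracheas (1.50) was the only called difference. Intervals lay below 0 for Chad, Cytl1 and Matn3 after injury in wild-type tracheas and for Chad and Sox9 in Myd88KO tracheas. Between the injured genotypes the interval of Prg4 lay below 0.

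Between the genotypes no probe of the 10 genes was called. In uninjured tracheas 0.384% of all probes tested were called (100 of 26064), and the largest differences among the 10 genes were -0.56 for Matn3 (adjusted p = 0.946 by limma) and 0.43 for Sox9 (adjusted p = 1.00). None reached an unadjusted p under 0.05 on its brightest probe, as 5.59% of all probes tested did, and no gene had groups that did not overlap, against 2.51% of all probes tested. The second Sox9 probe gave 0.38 with an unadjusted p of 0.0400 in the limma fit (adjusted p = 0.835). In injured tracheas 0.38% of all probes tested were called (99 of 26064), and 1 of the 10 genes, Prg4, reached an unadjusted p under 0.05, as did 12.5% of all probes tested. Its difference, Myd88KO minus wild-type, was -0.75, with an interval of -1.43 to -0.08 (adjusted p = 0.335), and -0.54 without injured replicate 5 (adjusted p = 0.582). The differences of Acan (-0.54), Hapln1 (-0.42) and Cytl1 (0.56) had intervals that include 0, and were -0.66, -0.50 and 0.23 without injured Myd88KO replicate 5. No gene had groups that did not overlap in injured tracheas, against 1.96% of all probes tested.

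A genotype difference in the response to injury was called for 0 of the 13 probes and 0% of the 26064 tested, where the smallest adjusted p was 0.179 and 2704 probes had an unadjusted p under 0.05. Of the 10 genes, Prg4 alone reached an unadjusted p under 0.05 (-1.03). The median over the 10 genes was -0.05, against -0.09 over all probes tested. Without injured Myd88KO replicate 5, 3 probes of the whole array and none of the 10 genes were called.

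Across the 20 tracheas, 6 of the genes moved together. The 15 pairs among Acan, Comp, Matn1, Matn3, Hapln1 and Cytl1 had a Pearson r of 0.43 to 0.80 (median 0.70), and 0.48 to 0.88 (median 0.65) after each group's mean was removed. These 6 were grouped after the correlations were seen, and all arrays share a scaling by their own 75th percentile. A mean was taken over a different set of 6, with Chad in place of Comp (Acan, Matn1, Matn3, Hapln1, Chad and Cytl1). It ranged from 0.49 to 1.73 in uninjured wild-type and 0.44 to 1.45 in uninjured Myd88KO arrays. After injury it ranged from 0.45 to 0.96 in wild-type and -0.03 to 1.24 in Myd88KO arrays. The lowest uninjured values were those of wild-type replicate 3 and Myd88KO replicate 4. These are descriptions over 20 arrays and no p is given.

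Cilp and Prg4 stood apart from that group. Cilp correlated with the other 9 members at -0.19 to 0.25, and Prg4 at -0.72 (with Chad) to 0.25 (with Cilp). After the group means were removed these ranges were -0.33 to 0.61 and -0.42 to 0.61, where 0.61 was the r between Cilp and Prg4. Sox9 correlated with Acan at 0.75, its highest value among the members, and with the 6 cartilage collagens (Col2a1, Col9a1, Col9a2, Col9a3, Col11a1 and Col11a2) at -0.41 to 0.27. Over pairs of a member and a collagen, the median r was 0.23 (60 pairs), and over pairs of collagens it was 0.65 (15 pairs). The collagen Col9a2 correlated with Matn1 at 0.80, with Comp at 0.78 and with Chad at 0.74. Col2a1, the main fibril collagen of cartilage, correlated with Cytl1 at -0.61 and with Prg4 at 0.60.

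**Figure D4:**
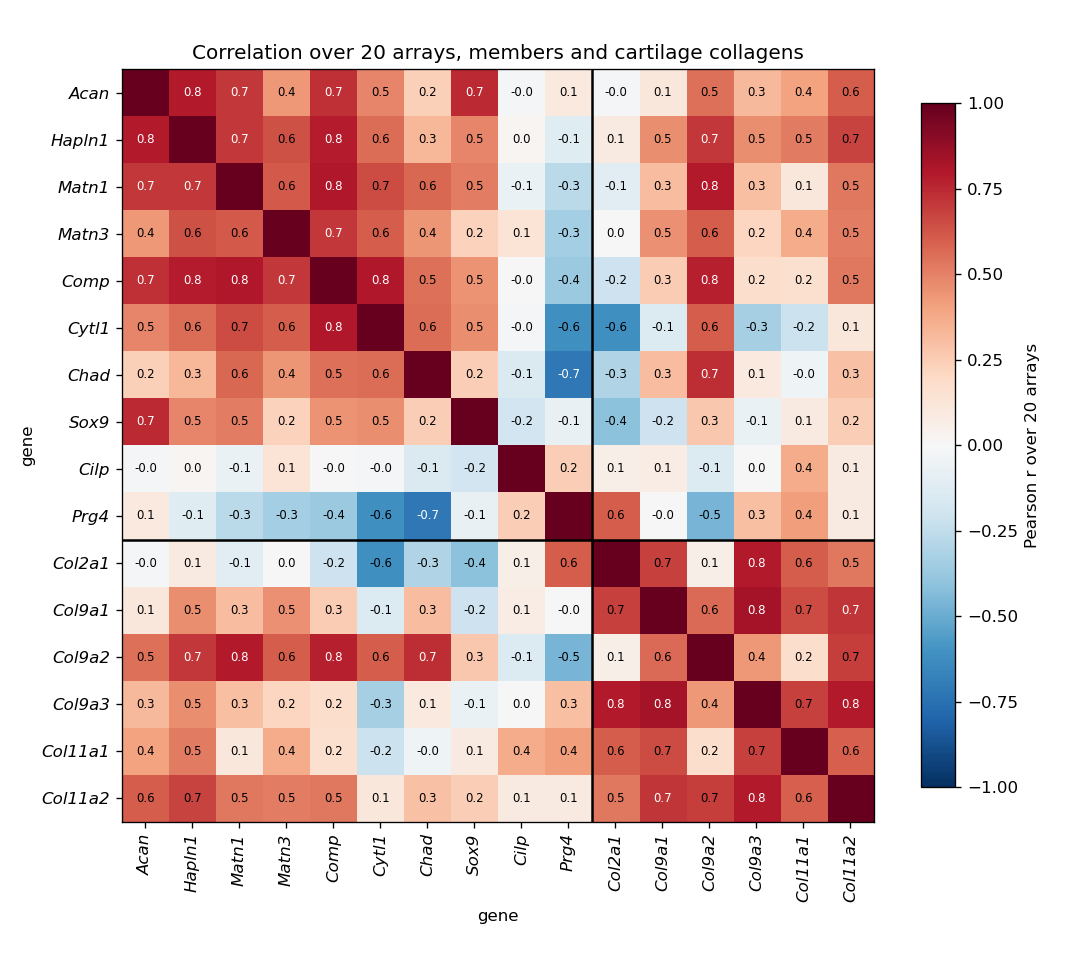
Pearson r over 20 arrays between the 10 genes and the 6 cartilage collagens (both axes, genes), in colour from -1 to 1, with lines between members and collagens. The block of Acan, Hapln1, Matn1, Matn3, Comp and Cytl1 holds r of 0.43 to 0.80, while Cilp and Prg4 are pale or blue against it.

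The genes whose pattern was most like that of the mean of Acan, Matn1, Matn3, Hapln1, Chad and Cytl1, over 20 arrays and among 17528 genes, were Ucma (r = 0.92), Comp (0.92), Mia (0.89), Snorc (0.86) and Ckmt2 (0.85). Of these, Ucma, Mia and Snorc are known as chondrocyte genes and Ckmt2 as a creatine kinase of muscle mitochondria. The 10 skeletal muscle genes also correlated with single members, at 0.64 for Comp and 0.63 for Cytl1. For Acan alone the closest was Snorc (0.89) and for Comp it was Ucma (0.90). For Hapln1 it was Snorc (0.82), followed by Ucma (0.82) and Acan (0.79). For Prg4 the closest were Washc5 (0.95), Col5a1 (0.94) and Acod1 (0.94), and 599 genes had r over 0.8, against 27 for Acan and 0 for Matn3 and Cilp. For Chad it was Ildr1 (0.94), with 164 genes over 0.8, for Cytl1 Rdm1 (0.91), with 283, and for Sox9 Cbfa2t3 (0.91), with 136. The highest r was 0.83 for Matn1 (Serpina1d), 0.76 for Matn3 (Pantr1) and 0.65 for Cilp (Kdm6a).

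The cartilage collagens were not called in any comparison. After injury in wild-type tracheas Col2a1 had a difference of 1.03 (adjusted p = 0.0691 by limma) with groups that did not overlap, and the differences were -0.13 for Col9a1, -0.28 for Col9a2, 0.23 for Col9a3, 0.02 for Col11a1 and 0.06 for Col11a2. The median of the 6 was 0.04, against -0.31 for the 10 genes. In uninjured tracheas all 6 had a lower mean in Myd88KO mice, with a median of -0.30, against 0.04 over all probes tested. None reached an unadjusted p under 0.05 in the limma fit there, as 5.59% of all probes tested did. In injured tracheas, with Myd88KO replicate 5 included, all 6 again had a lower mean in Myd88KO mice. The median there was -0.74, against -0.03 over all probes tested. Of the 6, 5 had an unadjusted p under 0.05, as did 12.5% of all probes tested. The largest differences were those of Col2a1 (-1.09, adjusted p = 0.206 by limma) and Col11a1 (-0.97, adjusted p = 0.172). For the 10 genes the median in that comparison was -0.12. The mean log2 level of the 6 collagens was -0.07, 1.24, 1.22, 0.25 and 0.03 in injured Myd88KO arrays 1 to 5. It ranged from 0.89 to 1.56 in injured wild-type arrays, and Myd88KO replicates 2 and 3 lay within that range. In uninjured arrays it ranged from 0.81 to 1.32 in wild-type and from 0.59 to 1.03 in Myd88KO tracheas. Injured Myd88KO replicates 1, 4 and 5 lay below all of these ranges, although the injury profile of replicate 5 was like that of uninjured arrays. Scaled to the mean of the 6 collagens in place of the 75th percentile, Prg4 in wild-type injury was 1.35 and Chad -1.22. In injured tracheas the same scaling moved the genotype difference of every gene up by the same amount, from -0.75 to -0.04 for Prg4, and turned it from negative to positive for Acan, Hapln1, Comp, Matn1, Matn3 and Sox9.

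Among the enzymes and inhibitors that act on this matrix, 4 of 12 genes were called after injury in wild-type tracheas, against 5.26% of all probes tested. Timp1, an inhibitor of matrix metalloproteinases, rose by 4.08, Mmp3 (stromelysin) by 2.68 and Mmp14 (a membrane-bound collagenase) by 1.47, and Timp3, an inhibitor that also acts on aggrecanases, fell by 0.85. The aggrecanases themselves were not called, with differences of 1.33 for Adamts4 (adjusted p = 0.0380) and 0.19 for Adamts5 (adjusted p = 0.678) in the limma fit. In Myd88KO tracheas 0 of the 12 were called, against 0.376% of all probes tested. There 3 of the 12 had an unadjusted p under 0.05, as did 19.5% of all probes tested. Timp3 differed by -0.60 there (adjusted p = 0.0552). Of 12 genes for sulphation and chondroitin synthesis, 1 was called after injury in wild-type tracheas, against 5.26% of all probes tested, and none in Myd88KO tracheas. That gene, Chsy1, a chondroitin synthase, rose by 0.73 in wild-type tracheas (adjusted p = 0.00960 by limma, just under the threshold). The list's median was 0.33 after injury in wild-type and -0.24 in Myd88KO tracheas. Of 8 tested genes for hyaluronan synthesis and binding and of 7 small leucine-rich proteoglycans none was called in any comparison.

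Of 15 tested other chondrocyte genes, 1 was called after injury in wild-type tracheas, against 5.26% of all probes tested. That gene was Wwp2, a ubiquitin ligase known as a SOX9 target in chondrocytes. It rose by 0.50 (adjusted p = 0.00990 by limma, just under the threshold), and none fell beyond the threshold. The median of that list was -0.23, and -0.39 in Myd88KO tracheas, where none was called. Of 8 tested genes of chondrocyte hypertrophy and bone, 1 was called higher and 1 lower in wild-type tracheas, against 5.26% of all probes tested in either direction. Spp1 (osteopontin, also made by macrophages) rose by 2.76 and Ibsp (bone sialoprotein) fell by 2.03. Ibsp was faint, at -1.65 in uninjured and -3.69 in injured wild-type tracheas, and none of the list was called in Myd88KO tracheas. Of 8 perichondrium, tendon and fibroblast genes none was called in any comparison. Over 20 arrays the 10 members correlated with their mean at -0.27 (Chad) to 0.51 (Acan), with Prg4 at 0.50.

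Genes of skeletal muscle, fat and thyroid, tissues that can stay attached to the trachea, gave no calls. Those of smooth muscle and endothelium gave none either. None of 10 skeletal muscle, 7 tested adipocyte, 4 tested thyroid, 6 smooth muscle or 5 endothelial genes was called in any comparison. All 10 muscle genes and all 7 adipocyte genes had a lower mean after injury in both genotypes, with medians of -0.40 and -0.30 in wild-type and -0.51 and -0.82 in Myd88KO tracheas. Between the uninjured groups, 6 of the 7 adipocyte genes had a higher mean in Myd88KO tracheas, with a median of 0.54. Ucp1 (2.42), Cidea (1.54) and Plin1 (0.92) had uninjured groups that did not overlap, against 2.51% of all probes tested, and adjusted p values of 0.199, 0.233 and 0.520 by limma. The mean muscle level ranged from 6.12 to 7.36 in uninjured and 5.38 to 6.74 in injured wild-type arrays. Their part in the lower means of the cartilage genes was not tested. In Myd88KO tracheas 2 of the 9 epithelial genes were called lower. Bpifa1 fell by 2.36 and Scgb1a1 fell by 6.24 (in 4 injured arrays, since its spot on replicate 5 was marked as an outlier). None of the 7 myeloid genes was called there, and 4 were higher by an unadjusted p under 0.05 in the limma fit.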

How the data were processed

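For each array the authors deposited the output of Agilent Feature Extraction 9.5.1.1, and the value used was the processed intensity of each spot, with background subtracted and arrays not scaled to each other. The rounded intensities that the authors deposited as a series-wide matrix served as an alternative. Control spots (1639 of 45018) and spots marked as outliers were left out, and spots of a probe were averaged. Analysis used R 4.3.3 and limma 3.58.1. Log2 intensities were set against each array's 75th percentile, and probes well above background on at least 10 of 20 arrays were tested. Comparisons were 4 pairs of groups and the difference between injury responses, fitted on all 20 arrays, with Benjamini-Hochberg adjustment within each. The code was tested on simulated data.

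The members and the gene lists were chosen with earlier results of these data known. Named are all members, every cartilage collagen, list genes that were called, and the genes most correlated with the members. Other genes were chosen after their values were seen. Where a gene had several probes, the brightest stood for it. Probes were named through a RefSeq table of GRCm38.p6, with 22951 matched on accession, 6659 on the current symbol and 3109 on an older one. Probe positions are those of the files, whose genome build is not given in the sources used here. The methods call the 5 samples of a group biological replicates. Arrays of the same replicate number shared a slide (5 slides, 2 scanning days). The number of arrays limits the precision. Alternatives were normexp background correction, quantile and median scaling, other filters, slide or scanning day as a block, array weights, fits of 2 groups, the methods' one-way test, collagen scaling and leaving out each array.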

Additional observations from a re-analysis of the deposited data

Results flagged for a closer look

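Of 52 checks (13 probes in 4 groups), 2 found an array far from the other 4 of its group, and chance alone gives about 1 in 20. The Matn1 probe read -1.93 in uninjured Myd88KO replicate 4, against -0.81 to -0.46 in the other 4. The dimmest Sox9 probe read -0.74 in uninjured wild-type replicate 3, against -4.78 to -3.66 in the others, while the other Sox9 probes were at their lowest of that group on the same array (1.54 and 0.99).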

How the results depend on the processing

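Of the 13 probes of the cartilage genes, 1 was called for injury in wild-type tracheas. That count was 0 with the replicate block (slide), 0 by the methods' one-way test after adjustment, 2 by that test unadjusted and 2 with array weights, and it ranged from 0 to 2 when single arrays were left out (2 without injured wild-type replicate 4). For injury in Myd88KO tracheas it was 0, and 1 by the methods' one-way test unadjusted. It stayed at 0 in the other 3 comparisons under the alternatives run. Leave-one-out counts were 0 in all 4 of these comparisons. No called difference changed sign. Single genes moved across the threshold only for Prg4, Chad and Cytl1 in wild-type injury and for Sox9 in Myd88KO injury, for Cytl1 and Sox9 only by the unadjusted one-way test.

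Arrays of the same replicate number shared a slide. After group means were removed, same-numbered arrays correlated at -0.218 to 0.478 (median 0.248), above 0.1 in 16 of 20 pairs, including all 5 pairs of uninjured Myd88KO and wild-type arrays, and in 9 of the 20 pairs the closest array was that of the same number. Not every pair passed 0.1, and the slide was kept as an alternative, under which Prg4 in wild-type injury had an adjusted p of 0.0107 by limma. With the replicate block, 1549, 143, 101, 112 and 1 of all probes were called in the 5 comparisons, against 1371, 98, 100, 99 and 0. Over all probes, counts depended on other settings too. For wild-type injury they were 2599 with array weights, 2106 with scanning day as a block, 3800 by the unadjusted one-way test and 665 to 1218 with 1 array left out. For Myd88KO injury they were 1901, 361, 1279 and 6 to 1075 (the latter without injured replicate 5), 59 without the filter and 0 with only the 2 groups or by the adjusted one-way test. For uninjured genotypes they were 180 with array weights, 63 with probes well above background on all 20 arrays, and 46 and 743 by the one-way test. For injured genotypes they were 63 with that filter, 38 with only the 2 groups, and 21 and 602. The difference between responses gave 2 with scanning day and 3 with array weights. The causes were not tested. With 5 arrays per group, intervals for single genes were wide, and dim probes such as the third Sox9 probe limit what can be read from them.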
